A study of Homo sapiens with 6 samples.

Results

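Interferon-stimulated genes are genes whose transcription rises after a cell is exposed to interferon. The 41 described here were chosen by name, with earlier results of these data known. All 41 were found by symbol among the 35784 genes of the table. Of these, 40 were among the 20134 genes with enough counts to be tested, and XAF1 was not. Their messages were sequenced from TRIzol-extracted total RNA of the human lung cancer cell line NCI-H1299, given as LUAD (lung adenocarcinoma) cells, in 3 control libraries (KO-NC) and 3 IGF2BP3 knockout libraries (KO-IGF2BP3). IGF2BP3 is an RNA-binding protein known as a reader of N6-methyladenosine. For the knockout, cells had received a lentiviral CRISPR vector with guides against IGF2BP3, had been selected with puromycin and had been grown as single-cell colonies in medium with serum. No interferon or virus other than the vector is named in the labels. The control libraries are also labelled H1299lenti. The labels do not say which colony or culture each library came from, nor what the control cells carried beyond these names. Genotype and colony therefore cannot be told apart. The p-values reflect nothing beyond library-to-library spread, some or all of it possibly technical.

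Type I interferons act through the receptor chains IFNAR1 and IFNAR2 and the kinases JAK1 and TYK2, which activate transcription factors of the STAT family. STAT2 and IRF9 belong to a complex that binds the interferon-stimulated response element (ISRE) in the promoters of its targets. Interferon gamma acts through IFNGR1 and IFNGR2, and its targets carry the gamma-activated site (GAS). The products block entry, translation or replication of viruses, sense foreign nucleic acids or feed back on the pathway, and many tumour lines keep some of them at a basal level without added interferon.

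RefSeq promoters (GRCh38.p14, 250 bases before to 50 after a start site) were matched by symbol for 33 of the 41 members. The ISRE core, spelled GAAA, then 2 bases of any kind, then GAAA, or TTTC, 2 bases, TTTC on the other strand, was found in at least 1 promoter of 23 of the 33 members, against 3.57% of all 35116 promoters and 4.38% of all symbols. The GAS core, TTCNNNGAA, which reads the same on both strands and can overlap an ISRE match, was found for 10 of the 33, against 7.66% of all promoters and 9.38% of all symbols. Among the matched members whose message fell in the knockout, 11 of 13 had an ISRE core, and among those that did not pass the test 11 of 18 had one. Stretches around a match are shown 5′ to 3′ along the gene, with the ISRE core in capitals, for members that fell, members that did not pass and the 1 that rose, so that the values can be set beside them.
IFITM3 (chr11:320883-320932, minus strand): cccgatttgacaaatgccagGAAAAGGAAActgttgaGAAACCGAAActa
IFITM1 (chr11:313980-314029, plus strand): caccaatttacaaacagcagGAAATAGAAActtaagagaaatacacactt
BST2 (chr19:17405731-17405780, minus strand): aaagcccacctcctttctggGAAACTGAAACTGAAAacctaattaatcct
IFI44L (chr1:78620355-78620404, plus strand): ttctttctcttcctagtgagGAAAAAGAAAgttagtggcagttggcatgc
GBP1 (chr1:89065306-89065355, minus strand): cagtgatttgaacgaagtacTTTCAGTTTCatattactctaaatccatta
ISG15 (chr1:1013364-1013413, plus strand): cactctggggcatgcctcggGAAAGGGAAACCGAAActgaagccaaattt
IFIT1 (chr10:89392487-89392536, plus strand): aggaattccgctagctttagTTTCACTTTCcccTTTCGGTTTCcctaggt
IFIT3 (chr10:89327855-89327904, plus strand): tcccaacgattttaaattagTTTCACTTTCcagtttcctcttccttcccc
OAS3 (chr12:112938311-112938360, plus strand): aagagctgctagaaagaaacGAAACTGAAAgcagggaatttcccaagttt
HERC5 (chr4:88456974-88457023, plus strand): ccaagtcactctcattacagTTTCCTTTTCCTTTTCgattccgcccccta
IFITM3, IFITM1, BST2, IFI44L and GBP1 are members that fell, ISG15, IFIT1, IFIT3 and OAS3 are members that did not pass, and HERC5 rose. The IFI44L stretch occurs with the same letters 164 and 73 bases before the start site. The OAS1 promoter held no ISRE core in these letters and held a GAS core, in capitals here, 168 bases before the start site.
OAS1 (chr12:112906774-112906822, plus strand): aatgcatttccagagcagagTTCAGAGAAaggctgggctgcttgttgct
A match is a description of letters and not a measured binding site.

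Totals ran from 67674223 to 80810319 counts, and a count of 3, used as the floor, was worth between 0.0389 and 0.0435 CPM (the usual depth-scaled count, here with TMM factors), for counting error only. The message of the targeted gene, IGF2BP3, was at 6.5, 5.69 and 5.94 FPKM (scaled for depth and gene length) in the controls and at 4.24, 2.90 and 2.61 FPKM in the knockout libraries (log2 fold change -0.91 with SE 0.20, adjusted p = 0.017). The call was lost without any 1 of the controls or without knockout replicate 2 (adjusted p up to 0.067). Counts summed over a gene cannot tell edited from intact message. Knockout replicate 1 stood apart from knockout replicates 2 and 3 on the second principal component (41.2 against -21.8 and -17.6). Of the markers of lung adenocarcinoma, NKX2-1, SFTPB, SFTPC and SFTPA1 had at most 0.23 FPKM in any library and NAPSA at most 0.57. NAPSA fell (log2 fold change -1.19 with SE 0.33, edgeR adjusted p = 0.04), a call made in 0 of the 6 fits without 1 library. NKX2-1, at no more than 52 counts, did not pass (log2 fold change 3.09 with SE 0.97, edgeR adjusted p = 0.061). Its 3 knockout values lay above all 3 controls. All 6 epithelial markers were detected. Of these 4 fell (CDH1, KRT8, KRT18 and KRT19), where 11.5% of all tested genes fell, and EPCAM and KRT7 did not pass. The summed level of all 6 was 2002 to 2147 FPKM in the controls and 1197 to 1342 FPKM in the knockout. KRT19 was at 23.8, 26.3 and 27.4 FPKM in the controls and 0.238, 0.321 and 0.226 FPKM in the knockout. Its log2 fold change was -6.64 with SE 0.15 (edgeR adjusted p = 1.8e-06). CDH1 had a log2 fold change of -1.54 with SE 0.23, and the 50 tested genes around it a median of -0.52. Of 5 stromal and endothelial markers 4 were in the table, with a summed level of 0.69 to 0.82 FPKM in the controls and 0.894 to 1.15 FPKM in the knockout. Most of that sum was COL1A1, which did not pass (log2 fold change 0.47 with SE 0.18, adjusted p = 0.1). PECAM1, at no more than 37 counts, fell (log2 fold change -4.05 with SE 0.94, adjusted p = 0.021), a call made in 3 of the 6 fits without 1 library. DCN, at no more than 34 counts, did not pass (log2 fold change -2.92 with SE 0.92, adjusted p = 0.06), and COL1A2 had a count of 0 in 5 libraries. Of 9 markers of immune cells, 6 were in the table. CD3E had a count of 0 in all 6 libraries and PTPRC a count of 0 in 5. CD14 (9.18, 9.49 and 8.57 FPKM in the controls, 2.38, 4.62 and 4.10 in the knockout) and CD68 (10.8, 7.27 and 8.05 and 5.65, 4.08 and 4.89) fell, the call of CD68 in 2 of the 6 fits without 1 library. LYZ, at 1.32, 0.852 and 0.112 FPKM and 1.51, 0 and 1.70 FPKM, did not pass (log2 fold change 0.47 with SE 1.27, adjusted p = 0.84), and NKG7 had at most 21 counts. The summed level of the list was 16.8 to 21.6 FPKM in the controls and 8.89 to 10.8 FPKM in the knockout libraries, and the part of these markers in the results was not tested.

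With no interferon named in the labels, 29 of the 41 members had a control mean of at least 1 FPKM, the median being 2.14 FPKM. The highest was IFITM2, a membrane protein that restricts virus entry, at 65.9 ± 4.04 FPKM (mean ± SD, n = 3), followed by its relative IFITM3 at 11.3 ± 0.973 and the Fc receptor and ubiquitin ligase TRIM21 at 9.91 ± 0.385. The control values of these 3 did not overlap. PARP14 (8.32 ± 0.608) and IFITM1 (7.25 ± 1.37) came next, and their order was within their spread. At the other end 7 members were below 0.2 FPKM, among them the GTPases MX1 (0.105 ± 0.0140) and MX2 (0.120 ± 0.0296), whose order was within their spread, and OAS2 (0.0214 ± 0.00389). XAF1, a pro-apoptotic factor, had 8 counts in control replicate 1 and 0 in the other libraries, so that no change could be read. ISG15, the ubiquitin-like modifier, was at 2.28 ± 0.243 FPKM and IFIT1, which binds foreign RNA caps, at 1.88 ± 0.371 FPKM.

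Of the 40 tested members, 17 fell in the knockout libraries, 1 rose and 22 stayed short of the threshold (edgeR quasi-likelihood test, Benjamini-Hochberg adjusted p of 0.05 over all 20134 genes), where 11.5% of all tested genes fell and 8.21% rose. The median log2 fold change of the members was -0.51, against 0.01 over all tested genes. Below 0 were 31 of the 40, against 49.5% of all tested genes. All 3 knockout libraries lay below all 3 controls for 22 of the 40 members, against 21.5% of tested genes, and above them for 3, against 19.7%. A fall of at least 2-fold was called for 10 members, against 4.68% of tested genes. In these bulk samples fewer cells with a message and less message per cell cannot be told apart. By control level, 3 of the 11 tested members under 1 FPKM fell, 8 of 20 between 1 and 5 FPKM and 6 of 9 at 5 FPKM or more. Shares of all tested genes at these levels were not computed, so the rise with level is not read as a trait of the members. Over all genes 11.5% fell in the main fit, and 16.0% in the fit limited to mean counts of at least 100.

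The count of falls was 11 without control replicate 1 (6.74% of genes tested there fell) and 11 without control replicate 3 (7.68%). It was from 12 to 18 without any other library (6.83 to 14.5%). Called with each library left out were 11 of the 17 falls, namely IFITM1, IFITM3, OAS1, MX2, GBP1, GBP2, IFI16, PARP9, PARP14, IFI44 and IFI44L, and the rise of HERC5; 6.16% of all tested genes fell in this way. Control replicate 3 was the highest control for 25 of the 40 members (38.2% of all tested genes) and knockout replicate 1 the lowest knockout for 24 (40.8%). Without knockout replicate 1 there were 18 falls (14.5% of genes tested there fell).

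The messages of the 4 members grouped as interferon-induced transmembrane proteins and tetherin all fell. IFITM1, IFITM2 and IFITM3 hinder the fusion of virus and cell membranes, and BST2, or tetherin, holds budding particles at the cell surface. IFITM3 (chromosome 11 from 319676 to 329475, GRCh38, minus strand) was at 33.3, 31.8 and 37.6 CPM in control replicates 1, 2 and 3 and at 5.81, 8.28 and 9.38 CPM in knockout replicates 1, 2 and 3. The groups were far apart, with the lowest value in knockout replicate 1, and the message was 4.37-fold lower (log2 fold change -2.13 with SE 0.18, adjusted p = 2.9e-04). IFITM1 was at 12, 11 and 15.6 CPM in the controls and 5.16, 6.68 and 7.36 CPM in the knockout, 2.01-fold lower (log2 fold change -1.0 with SE 0.20, adjusted p = 0.01). IFITM2, the most abundant of the 3, was at 114, 104 and 118 CPM and 65.8, 87.3 and 86.0 CPM, a smaller fall (log2 fold change -0.49 with SE 0.12, adjusted p = 0.024) that did not pass without control replicate 1, 2 or 3 (adjusted p 0.054 to 0.085). Its groups did not overlap, and knockout replicate 1 was again the lowest. The 3 genes are close copies, and how reads shared between them were assigned is not given in the sources used here.

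BST2 had 112, 86 and 113 counts in the controls and 14, 12 and 0 in the knockout libraries (log2 fold change -3.62 with SE 0.82, adjusted p = 0.02). All 3 knockout values were low, and the size of the fall is poorly fixed so near the floor. The call was lost without control replicate 1, 2 or 3 or without knockout replicate 2, with adjusted p from 0.05 to 0.067.

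The 4 members grouped as sensors and helicases, IFI16, IFIH1, DDX60 and the antibody receptor TRIM21, all fell, by very different amounts. Other sensors that are not members did not pass, among them RIGI (listed as DDX58, adjusted p = 0.057), CGAS (0.8), TLR3 (0.26) and DHX58 (0.81). RIGI had no overlap, at 14.0, 13.0 and 10.9 CPM in the controls and 5.65, 8.94 and 9.15 CPM in the knockout. Its log2 fold change was -0.68 with SE 0.21, and at least 1 alternative fit called it. The 50 tested genes around it on chromosome 9 had a median log2 fold change of -0.49. IFI16, a nuclear DNA sensor of the PYHIN family (chromosome 1 from 158999968 to 159055155), was at 35.9, 34.7 and 40.4 CPM in the controls and 11.6, 4.83 and 6.29 CPM in the knockout, 4.88-fold lower (log2 fold change -2.29 with SE 0.30, adjusted p = 0.0019). Here knockout replicate 1 was the highest of the knockout libraries and still less than any control. IFIH1, the RNA sensor MDA5, was at 5.70, 5.29 and 7.91 CPM against 3.24, 3.19 and 3.85 CPM (log2 fold change -0.88 with SE 0.21, adjusted p = 0.023), with no overlap. Smaller falls were those of the helicase-like DDX60, at 16.7, 18.0 and 18.7 CPM against 12.6, 13.7 and 13.5 CPM (log2 fold change -0.42 with SE 0.10, adjusted p = 0.026), and of TRIM21, at 19.4, 21.0 and 20.7 CPM against 15.9, 16.4 and 15.7 CPM (log2 fold change -0.35 with SE 0.09, adjusted p = 0.034). Neither gene's values overlapped between the groups. The calls of these 3 depended on single libraries. IFIH1 did not pass without control replicate 1 or 3 or without knockout replicate 2 (adjusted p up to 0.079), and DDX60 and TRIM21 did not pass without any 1 library other than knockout replicate 1 (up to 0.098 and 0.13).

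The GTPases of the list split by gene. GBP1 and GBP2, guanylate-binding proteins that attack vacuoles of pathogens and are known as strong targets of interferon gamma, lie side by side on chromosome 1 and both fell. GBP2 was at 10.6, 11.5 and 15.4 CPM in the controls and 4.22, 2.86 and 2.99 CPM in the knockout (log2 fold change -1.90 with SE 0.22, adjusted p = 0.0012), and GBP1 at 9.76, 9.44 and 12.3 CPM and 4.81, 2.41 and 2.31 CPM (log2 fold change -1.73 with SE 0.30, adjusted p = 0.007). Knockout replicate 1 was the highest of its group for both, without reaching the controls. MX2, a nuclear-pore GTPase that restricts retroviruses, was low in the controls at 1.45, 2.35 and 1.93 CPM and lower in the knockout at 0.391, 0.694 and 0.622 CPM (log2 fold change -1.74 with SE 0.34, adjusted p = 0.01). On the log2(FPKM + 1) scale, which compresses such low values, it did not pass (limma adjusted p = 0.16). Its neighbour MX1 did not pass, with 2.11, 2.30 and 1.78 CPM against 2.29, 1.67 and 2.29 CPM (log2 fold change 0.01 with SE 0.24, adjusted p = 0.98), and its groups overlapped.

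Of the oligoadenylate synthetases, enzymes that answer double-stranded RNA by making the activator of RNase L, OAS1 and the inactive relative OASL fell, while OAS2 and OAS3 did not pass. OAS1 (chromosome 12 from 112905856 to 112933219) was at 29.8, 30.1 and 32.8 CPM in the controls and 9.03, 13.7 and 12.8 CPM in the knockout, 2.61-fold lower (log2 fold change -1.38 with SE 0.16, adjusted p = 0.0011). OAS3, the next gene on the chromosome and the most abundant of the 4 per length (control means of 6.74 ± 0.899 FPKM and, for OAS1, 2.23 ± 0.111 FPKM), was at 139, 138 and 109.6 CPM and 131, 110.3 and 121 CPM (log2 fold change -0.10 with SE 0.11, adjusted p = 0.61), with control replicate 3 as low as the knockout libraries. OASL was at 6.66, 6.94 and 7 CPM and 3.65, 5.08 and 4.39 CPM (log2 fold change -0.65 with SE 0.17, adjusted p = 0.034). Its groups did not overlap, but the call was lost without control replicate 1, 2 or 3 or without knockout replicate 3 (adjusted p 0.09 to 0.11). OAS2 had 16 to 35 counts in any library.

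PARP9 and PARP14, ADP-ribosyltransferase family members that modulate STAT signalling, lie on chromosome 3 and fell by similar amounts. PARP14 was at 92.2, 83.3 and 96.6 CPM in the controls and 48.5, 55.1 and 53.8 CPM in the knockout (log2 fold change -0.79 with SE 0.09, adjusted p = 9.1e-04), and PARP9 at 43.4, 40.2 and 42.4 CPM and 23.9, 25 and 26.7 CPM (log2 fold change -0.74 with SE 0.08, adjusted p = 8.8e-04). The spread within each group was small, and no knockout library came near a control. The antiviral and growth-restraining proteins SAMD9 and SAMD9L, neighbours on chromosome 7, did not pass. SAMD9 was at 18.7, 13.7 and 18.1 CPM in the controls and 10.6, 12.4 and 15.6 CPM in the knockout (log2 fold change -0.38 with SE 0.18, adjusted p = 0.19), and SAMD9L at 6.09, 6.42 and 7.36 CPM and 5.87, 7.11 and 8.03 CPM (log2 fold change 0.08 with SE 0.17, adjusted p = 0.79), both with overlap.

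IFI44 and IFI44L, paired genes on chromosome 1 whose products restrain virus replication, were among the members with the largest falls. IFI44L was at 4.31, 3.35 and 4.81 CPM in the controls and 0.313, 0.510 and 0.816 CPM in the knockout, 7.59-fold lower (log2 fold change -2.92 with SE 0.37, adjusted p = 0.0017). IFI44 was at 6.39, 7.12 and 6.02 CPM and 1.60, 1.54 and 1.67 CPM, with the 3 knockout libraries close together, 4.05-fold lower (log2 fold change -2.02 with SE 0.17, adjusted p = 3.0e-04). The mitochondrial protein IFI6 had lower values in every knockout library (2.27, 3.20 and 3.33 CPM against 1.43, 2.17 and 1.78 CPM) and did not pass (log2 fold change -0.71 with SE 0.26, adjusted p = 0.093). IFI35, which forms a complex with NMI, was at 13.7 ± 1.98 CPM and 12.6 ± 1.04 CPM (n = 3 each, adjusted p = 0.59), and IFI27 had at most 25 counts in any library.

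Of the 4 members grouped with ISG15, a modifier that is attached to proteins by ligases such as HERC5 and removed by USP18, 0 fell. UBE2L6, the conjugating enzyme of the same system and not a member, did fall, from 42.2, 39.0 and 44.7 CPM to 27.7, 29.9 and 32.2 CPM (log2 fold change -0.49 with SE 0.09, adjusted p = 0.0091). UBA7, of the same system and also not a member, did not pass (log2 fold change -0.31 with SE 0.32, edgeR adjusted p = 0.55), with overlapping groups. HERC5 was the only member that rose. It was at 3.90, 3.38 and 3.84 CPM in the controls and at 6.17, 10.2 and 9.69 CPM in the knockout, 2.34-fold higher (log2 fold change 1.23 with SE 0.22, adjusted p = 0.0073), with knockout replicate 1 between the controls and the other 2. Its neighbour HERC6 was at 14.8, 17.2 and 13.2 CPM and 14.2, 14.0 and 12.6 CPM (log2 fold change -0.15 with SE 0.13, adjusted p = 0.48). ISG15 was at 2.02, 1.94 and 2.38 CPM and 2.83, 2.10 and 1.89 CPM (log2 fold change 0.11 with SE 0.24, adjusted p = 0.81), with overlapping groups. USP18, also a brake on the type I receptor, had higher values in every knockout library (9.21, 8.91 and 9.86 CPM against 12.2, 10.5 and 10.5 CPM) without passing (log2 fold change 0.25 with SE 0.13, adjusted p = 0.23), though limma on log2(FPKM + 1) called it, and close copies of this gene can share its reads.

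The 4 tetratricopeptide proteins IFIT1, IFIT2, IFIT3 and IFIT5, which bind viral RNA, did not pass; 2 had log2 fold changes below 0 and 2 above, 2 had an unadjusted p under 0.05, and DESeq2 called 1. IFIT3 was at 16.9, 17.0 and 19.8 CPM in the controls and 9.94, 13.1 and 14.2 CPM in the knockout (log2 fold change -0.53 with SE 0.16, adjusted p = 0.051), just short of the threshold, and passed with DESeq2 (adjusted p = 0.012), and IFIT2 at 10.7, 9.20 and 13.2 CPM and 6.72, 7.97 and 9.02 CPM (log2 fold change -0.48 with SE 0.18, adjusted p = 0.11). Neither gene's groups overlapped. IFIT1 had 7.89, 11.3 and 8.41 CPM and 8.73, 13.4 and 12.6 CPM (log2 fold change 0.33 with SE 0.21, adjusted p = 0.32) and IFIT5 24.9 ± 2.81 and 26.6 ± 3.01 CPM (n = 3 each, adjusted p = 0.64). IFIT1, IFIT2 and IFIT3 lie within the bounds of LIPA, a lysosomal lipase gene on the opposite strand with far more counts (means of 7759 in the controls and 5920 in the knockout), which fell (log2 fold change -0.46, adjusted p = 0.023). The strand setting of the counting is not given, so reads of LIPA and of these genes cannot be told apart. The enzymes RSAD2 (viperin), CMPK2 and ISG20, which act on nucleotides or RNA, did not pass either, with log2 fold changes of -0.01, -0.82 and 0.31 and overlapping groups; 0 of these 3 had an unadjusted p under 0.05 in edgeR, and DESeq2 called 0. RSAD2 was at 1.57, 0.609 and 1.32 CPM in the controls and 1.15, 1.03 and 1.3 CPM in the knockout, CMPK2 at 0.796, 1.42 and 0.594 and 0.352, 0.666 and 0.570 CPM, and ISG20 at 4.95, 3.71 and 6.52 and 4.03, 7.24 and 7.53 CPM. RSAD2 and CMPK2 overlap each other by 351 bases, so their reads too may be mixed.

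Of the 4 transcription factors on the list 0 passed the edgeR test, 3 had an unadjusted p under 0.05, DESeq2 called 1, and all 4 had log2 fold changes below 0. IRF7, the amplifier of type I interferon induction, was at 3.25, 3.26 and 4.41 CPM in the controls and 2.53, 1.63 and 1.15 CPM in the knockout (log2 fold change -1.04 with SE 0.31, adjusted p = 0.054), with no overlap. It passed with DESeq2 (adjusted p = 0.013) and without knockout replicate 1 (0.0089). IRF1, the early factor of the gamma response, was at 49.8, 49.1 and 57.8 CPM and 41.2, 42.9 and 45.9 CPM (log2 fold change -0.27 with SE 0.09, adjusted p = 0.076), also with no overlap. STAT2 was at 39.7, 34.1 and 39.3 CPM and 24.3, 32.8 and 36.6 CPM (log2 fold change -0.27 with SE 0.15, adjusted p = 0.26). Its DNA-binding partner IRF9 was at 9.95, 4.73 and 7.32 CPM and 3.96, 3.48 and 5.70 CPM (log2 fold change -0.74 with SE 0.30, adjusted p = 0.13), and the groups overlapped for both. IRF9 shares its position and strand with a second gene model that has more counts (ENSG00000259529, means of 1918 and 1652), and its value is uncertain for that reason.

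Each member was also set beside its 25 nearest tested genes on either side (fewer near a chromosome end). For the 17 members that fell, the median log2 fold change of these neighbours lay between -0.13 and 0.12. The median over all tested genes was 0.01. That each of the 17 was below its own neighbours' median follows largely from its choice as a fallen gene. No conclusion is drawn from it. The medians were -0.04 for IFITM3, -0.03 for OAS1, -0.08 for IFI16, 0.12 for GBP2 and 0.03 for IFI44L, and -0.15 for HERC5.

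Many members sit next to each other, which gave 14 pairs of tested members within 200 kb. Both members fell in 5 of these pairs, 1 was called in 3 and neither in 6. The ratio within a library needs no scaling between libraries. OAS1 over OAS3, whose gene bodies are 4.83 kb apart, was 0.214, 0.218 and 0.299 in the controls and 0.0691, 0.124 and 0.106 in the knockout. MX2 over MX1 was 0.686, 1.02 and 1.08 in the controls and 0.170, 0.415 and 0.271 in the knockout. HERC6 over HERC5 was 3.80, 5.09 and 3.45 and 2.30, 1.37 and 1.3. In each of these 3 pairs the ratios of the groups did not overlap. The same held for IFITM1 over IFITM3, both of which fell, at 0.359, 0.345 and 0.415 against 0.888, 0.807 and 0.785. The ratios of the groups were also apart for IFITM2 over IFITM1. So were those of IFIT3 over IFIT1 and SAMD9 over SAMD9L, pairs in which neither member was called. PARP9 over PARP14, in contrast, was 0.471, 0.482 and 0.439 in the controls and 0.493, 0.454 and 0.495 in the knockout, with overlap. The pairs named were chosen after their values were seen, and no p is given for them. For single genes the groups were apart in 21.5% (knockout lower) and 19.7% (knockout higher) of all tested genes. Shares over all pairs of neighbouring genes were not computed. Neither the separated ratios nor the calls by pair are therefore read as a trait of the members.

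Upstream of the members, the lists held 54 genes for ligands, receptors and kinases, nucleic acid sensing and brakes, of which 31 were tested, 4 fell and 2 rose; the falls were 12.9% of those tested, near the 11.5% of all genes. Of 21 interferon genes 12 were in the table and only IFNE had enough counts to test; IFNB1 had at most 8 counts and none of the listed alpha genes more than 17. IFNE, an epithelial type I interferon on chromosome 9, was at 4.39, 4.16 and 5.25 CPM in the controls and 1.76, 0.751 and 0.272 CPM in the knockout (log2 fold change -2.31 with SE 0.57, adjusted p = 0.026), with a median log2 fold change of -0.38 among its chromosomal neighbours. The call was lost without control replicate 1, 2 or 3 or knockout replicate 2 (adjusted p up to 0.089). Of the 9 receptor and Janus kinase genes 2 fell. IFNGR1, the ligand-binding chain of the gamma receptor, was at 117, 119 and 134 CPM in the controls and 53.3, 42.1 and 48.0 CPM in the knockout, 2.58-fold lower (log2 fold change -1.37 with SE 0.10, adjusted p = 1.9e-04), and was called with each library left out. The spread within the groups was far smaller than the gap. IFNAR1 and IFNAR2 had log2 fold changes of 0.00 and 0.18 (adjusted p = 1 and 0.3). JAK1, the kinase that all these receptors use, fell by a small amount (log2 fold change -0.28 with SE 0.08, adjusted p = 0.039), a call lost without any 1 library other than knockout replicate 1 (adjusted p up to 0.15).

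Among 14 tested genes of nucleic acid sensing 1 fell and 1 rose. STING1, the adaptor of the DNA sensor CGAS, was at 3.57, 2.54 and 2.57 CPM in the controls and 0.482, 1.16 and 1.19 CPM in the knockout (log2 fold change -1.61 with SE 0.37, adjusted p = 0.021), without overlap. It did not pass without control replicate 1, 2 or 3 (adjusted p up to 0.082). TRAF3, a ubiquitin ligase of the signalling complex, was at 64.2, 66.0 and 77.3 CPM and 103, 96.6 and 93.2 CPM (log2 fold change 0.50 with SE 0.09, adjusted p = 0.0083). Of 7 tested brakes only SOCS3, an inhibitor of Janus kinases, passed; it rose (log2 fold change 0.56 with SE 0.12, adjusted p = 0.015), with a neighbours' median of 0.44, and did not pass without control replicate 1 or knockout replicate 2 (adjusted p up to 0.066).

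A further 49 interferon-stimulated genes that are not members were listed, of which 46 were tested, 13 fell (28.3%, against 11.5% of all genes) and 1 rose. Their median log2 fold change was -0.26. All knockout libraries lay below all controls for 23 of the 46, against 21.5% of all tested genes. They lay above all controls for 4 of the 46, against 19.7%. The list was chosen with earlier results of these data known, so these shares are no independent look at the pattern. GBP3, next to GBP1 and GBP2, was at 22.2, 22.2 and 28.7 CPM in the controls and 7.57, 5.30 and 5.53 CPM in the knockout (log2 fold change -1.99 with SE 0.18, adjusted p = 3.9e-04). DTX3L, the partner of PARP9 in a ubiquitin ligase complex, whose gene overlaps the start of PARP9 on the other strand by 240 bases, fell (log2 fold change -0.78 with SE 0.10, adjusted p = 0.002) by about as much as PARP9. The thymidine phosphorylase TYMP fell (log2 fold change -1.66 with SE 0.18, adjusted p = 7.8e-04), as did the death ligand TNFSF10 (log2 fold change -2.20 with SE 0.36, adjusted p = 0.0054). The secreted glycoprotein LGALS3BP fell (log2 fold change -0.78 with SE 0.07, adjusted p = 3.9e-04) while its chromosomal neighbours had a median of 0.41. SLFN11, which blocks stressed replication forks, was the 1 that rose, from 5.58, 6.60 and 3.94 CPM to 15.2, 51.0 and 50.7 CPM (log2 fold change 2.86 with SE 0.45, adjusted p = 0.0044), with knockout replicate 1 well below replicates 2 and 3. The falls in this list numbered 8 without control replicate 1 (6.74% of all genes tested there fell) and 7 without knockout replicate 2 (7.65%). They numbered from 10 to 19 without any other library (6.83 to 14.5%).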

How the data were processed

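Gene-level counts and FPKM values of 3 control and 3 IGF2BP3 knockout libraries were used as the authors deposited them. Per the labels' protocols and the submitters' processing notes, reads were trimmed with Cutadapt, aligned to GRCh38 with HISAT2 2.0.4 and quantified with StringTie 1.3.4d; for the annotation release, the strand setting and the treatment of reads shared by close copies, the answer is not given in the sources used here. The share of even numbers was 69.9 to 71.0% for counts from 4 to 10 and 49.5 to 50.1% above 100, as it would be if the 2 mates of a fragment were each counted, so low counts may hold fewer molecules than their size.

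The counts of all 35784 genes were fitted with edgeR 4.0.16 (TMM, filterByExpr with a minimum count of 10 and total of 15, quasi-likelihood F test; R 4.3.3), with Benjamini-Hochberg adjustment over 20134 genes and a threshold of 0.05. SE is the log2 fold change divided by the square root of F. CPM are counts over TMM-adjusted totals. The script was tested on simulated data. No 2 libraries of a group agreed within sampling noise (chi-square per degree of freedom 12.2 to 106). The members and lists were chosen with earlier results of these data known. All 41 members are named, with IGF2BP3 and, of each pathway list, up to 6 called genes with the smallest adjusted p. IFNAR1, IFNAR2, IFNB1, UBE2L6, UBA7, LIPA, the sensors that did not pass and the markers were named after their values were seen. Marker lists were epithelial, lung adenocarcinoma, immune, and stromal and endothelial. Alternatives were other filters, RLE factors, limma 3.58.1 (voom with quantile normalization, and log2 FPKM with pseudocounts of 1 and 0.1), DESeq2 1.42.0, a replicate block and each library left out. A gene of the further interferon-stimulated list is not reported here, and the list was described without it.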

Additional observations from a re-analysis of the deposited data

How the results depend on the processing

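Outside the fits that left out a library, from 13 to 19 members were called lower, and 1 was called higher except with limma on log2(FPKM + 1), which called 2. Calls lost by single members there were IFITM2 on both FPKM scales, MX2 on log2(FPKM + 1), DDX60 on both FPKM scales and with the replicate block, TRIM21 on log2(FPKM + 0.1) and with the block, and OASL on log2(FPKM + 0.1), with the block and without a filter. BST2 and MX2 had too few counts to be tested in the fit limited to mean counts of at least 100. The 17 members called lower in that fit are therefore not the same as in the main fit. Of the further interferon-stimulated genes 7 were called lower on log2(FPKM + 0.1), and 2 higher with voom, DESeq2 or log2(FPKM + 1). Of the pathway genes 7 were called lower with DESeq2 and 2 with the block. Without a filter on low counts 1055 genes rose, against 1652. Leaving out 1 library gave 11 to 18 members lower and 1 higher, 7 to 19 further genes lower and 1 to 3 higher, 1 to 7 pathway genes lower and 1 to 3 higher, and 1410 to 3064 falls and 773 to 2274 rises over all genes. The causes were not tested.

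The replicate block is only a number here: deviations of same-numbered libraries correlated at 0.02, -0.06 and -0.02, and not every library correlated best with its own number. With the block 15 members were lower and 1 higher, and 1855 genes fell and 1146 rose.

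Members near 0 changed sign. RSAD2 had log2 fold changes of 0.21 (voom), 0.0066 and 0.058 (log2 FPKM plus 1 and plus 0.1) and 0.084 (replicate block). With 1 library left out the log2 fold change ran from -0.31 to 0.26 for RSAD2, from -0.079 to 0.22 for ISG15, from -0.082 to 0.15 for MX1, from -0.028 to 0.20 for SAMD9L and from -1.28 to 0.046 for IFI27. OAS2, IFI27 and XAF1 had too few counts to show a modest change at this depth.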
